A study of Mus musculus with 2 samples.

Results

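A set of 10 genes from 2 calcium-dependent signalling routes of cardiac hypertrophy was taken by gene symbol from 22882 symbols measured in mouse heart, and all 10 were found, each on a single row. They are the calcineurin subunit genes Ppp3ca, Ppp3cb and Ppp3r1, the calcineurin regulators Rcan1 and Rcan2, the transcription factors Nfatc1, Nfatc3 and Nfatc4, and the kinase genes Camk2d and Camk2g. Expression was compared between Med1fl/fl heart, in which both Med1 alleles carry loxP sites, and csMed1-/- heart, in which the same floxed alleles are cut by a Cre driven by the α-MyHC promoter, active in cardiomyocytes. All mice were 23 days old, of mixed gender and on the C57BL6/J background, and RNA of 5 hearts of each genotype was combined into 1 library, so there were no replicates. The labels give no Cre transgene for the controls, so effects of the transgene and of the deletion cannot be told apart. Cells other than cardiomyocytes keep Med1 in this model.

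Calcineurin is a phosphatase made of a catalytic A subunit and a calcium-binding B subunit, and it is switched on by calcium and calmodulin. It removes phosphates from NFAT factors, which then enter the nucleus and, with partners such as GATA4 and MEF2, turn on genes of cardiac growth. RCAN proteins bind calcineurin and hold it in check. CaMKII is a kinase switched on by the same calcium and calmodulin, and in heart it phosphorylates calcium-handling proteins and class II histone deacetylases, which releases MEF2. Both routes are best known for driving pathological hypertrophy and heart failure in the adult heart.

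Of the 10 genes, 1 was more than 2-fold higher in csMed1-/- heart (Rcan1), 3 were more than 2-fold lower (Rcan2, Nfatc3 and Ppp3cb), and 6 lay within 2-fold. The size of change was taken as the plain ratio of FPKM, the fragments scaled to transcript length and library size, and 2-fold is the threshold the study names. The study also used a false discovery rate cutoff, which was not applied here, so genes past 2-fold here are not its list of changed genes. Genes were kept if neither library listed them at 0 and one or both gave at least 1 FPKM, and all 10 met this. Of all 10489 genes kept, 31.5% were past 2-fold in either direction, against 40% of the 10 genes here. Higher genes made up 13.6% of all genes kept and 10% of the 10, and lower genes 18.0% and 30%. The share of these genes past 2-fold was therefore near the share of all genes. Their median log2 ratio was 0.04, beside -0.07 over all genes kept. The 4 genes past 2-fold ran from a log2 ratio of -1.34 to 1.98, while the other 6 had log2 ratios between -0.25 and 0.10.

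The libraries were checked on the deleted gene first. Med1 (GRCm38 chromosome 11, 98152154 to 98193293, minus strand) had 3.38 FPKM in Med1fl/fl and 0.412 FPKM in csMed1-/- heart, 8.22-fold lower, on a row that covers the whole gene and not the floxed exons alone. FPKM summed to 780366 over the control library and to 716365 over the csMed1-/- library. Steps among the lowest values correspond to a depth 1.39 times that of control for csMed1-/- heart, provided that cuffdiff divided by mapped fragments and nothing else. Absolute depth is unknown, so no counting interval can be given. Tissue identity was read from cardiomyocyte markers. Of 9 fixed markers 8 were analysed, and Actc1 was listed at 0 in control beside 9189 FPKM in csMed1-/- heart, which may be a failed estimate. The other 7 summed to 56435 FPKM in the control pool and 26308 in the csMed1-/- pool.

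**Figure D1:**
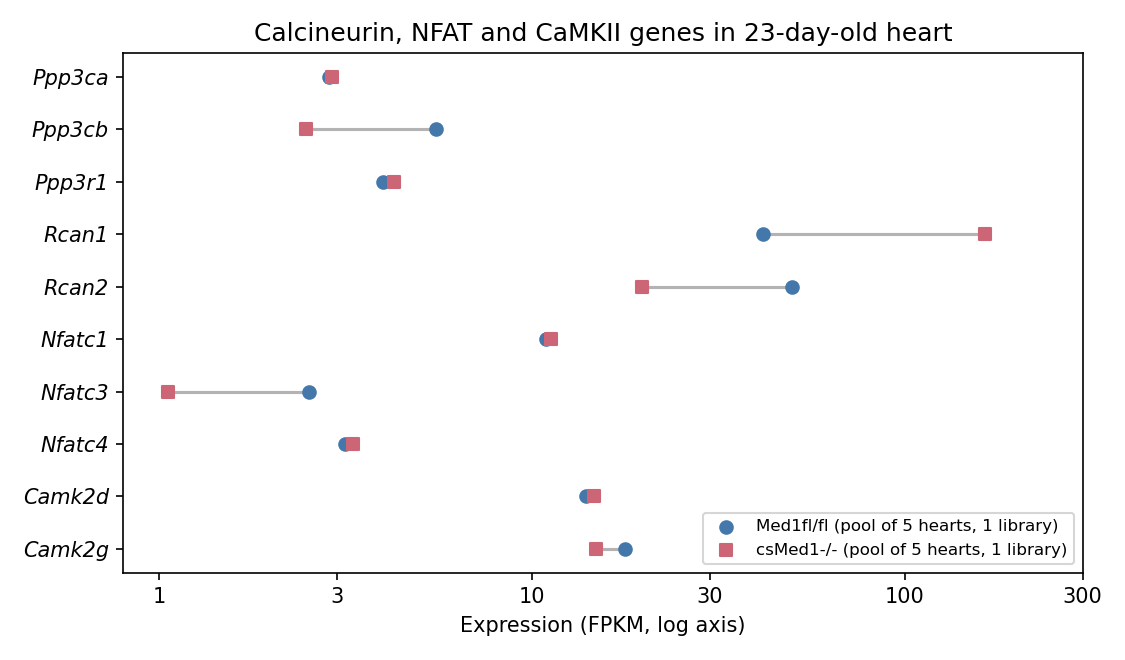
Expression of the 10 genes in the pooled Med1fl/fl library (circles) and the pooled csMed1-/- library (squares), in FPKM on a log axis, with a line joining the values of each gene. Rcan1 lies to the right of its control value, at 164.5 against 41.6 FPKM, Rcan2, Nfatc3 and Ppp3cb lie to the left of theirs, and the symbols of the other 6 genes nearly coincide.

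The inhibitor arm held the largest change. Rcan1 (chromosome 16, 92391953 to 92470867, minus strand), which encodes a protein that binds and restrains calcineurin, had 41.6 FPKM in Med1fl/fl and 164.5 FPKM in csMed1-/- heart. It was 3.95-fold higher (log2 ratio 1.98), and 95.6% of all genes kept had a lower ratio. Rcan1 was also the most abundant of the 10 genes in csMed1-/- heart. In bulk heart RNA, a change in the number of cells of a type and a change in RNA per cell cannot be told apart, here and in the values that follow.

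Rcan2 (chromosome 17, 43801351 to 44039516, plus strand) encodes a sister protein of the same family and went the other way. It had 49.9 FPKM in control, the highest of the 10 genes there, and 19.8 FPKM in csMed1-/- heart. It was 2.53-fold lower (log2 ratio -1.34), and 11.8% of all genes kept had a lower ratio. Rcan3, the third gene of the family, had 3.92 FPKM in the control pool and 2.08 in the csMed1-/- pool, inside 2-fold.

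Within one library, the ratio of Rcan1 to Rcan2 does not depend on how libraries were scaled to each other. It was 0.833 in Med1fl/fl heart and 8.32 in csMed1-/- heart, a 9.99-fold shift. That shift combines the changes of Rcan1 and Rcan2 given above, the highest and lowest ratios of the 10 genes, and is not a separate result. Rcan1 made up 43.6% of the summed FPKM of the family in control and 88.3% in csMed1-/- heart, and Rcan2 went from 52.3% to 10.6%. The 3 genes together had 95.5 FPKM in the control pool and 186.4 in the csMed1-/- pool, a ratio of 1.95, so the family total moved less than Rcan1 alone.

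Rcan1 has alternative first exons, and transcripts from the internal start are a known target of calcineurin and NFAT, whereas those from the upstream start are not. The deposited table holds 1 value per gene, so the contribution of each start was not measured. The RefSeq starts lie 66.1 kb apart, and the internal one falls in intron 1 of the longer GENCODE transcripts of the gene. The windows around both starts, from 250 bases before to 50 bases after, are shown because the largest change of the group was in this gene. Capitals mark the NFAT core motif, GGAAA, or its reverse complement TTTCC on the printed strand. They are given 5′ to 3′ on the minus strand (RefSeq, GRCm38.p6), at chr16:92466120-92466419 for the upstream start and at chr16:92400029-92400328 for the internal start.
Rcan1 upstream start: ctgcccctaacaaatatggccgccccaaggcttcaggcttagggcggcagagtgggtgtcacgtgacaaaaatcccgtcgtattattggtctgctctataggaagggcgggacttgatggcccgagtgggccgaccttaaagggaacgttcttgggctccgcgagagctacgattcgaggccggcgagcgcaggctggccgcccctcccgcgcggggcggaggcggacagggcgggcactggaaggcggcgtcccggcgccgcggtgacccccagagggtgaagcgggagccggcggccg
Rcan1 internal start: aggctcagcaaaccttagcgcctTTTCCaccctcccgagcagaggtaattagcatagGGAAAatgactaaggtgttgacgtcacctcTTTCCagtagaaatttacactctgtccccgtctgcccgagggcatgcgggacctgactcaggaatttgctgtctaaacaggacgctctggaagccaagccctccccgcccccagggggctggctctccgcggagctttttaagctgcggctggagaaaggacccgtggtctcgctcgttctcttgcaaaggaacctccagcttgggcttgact
The upstream window held 0 copies of the motif and the internal window held 3. Over all 32851 windows of this length in the table, 61.3% held at least 1 copy on either strand and 9.42% held at least 3, so such matches are common.

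Windows were listed for 7 of the 10 genes, 11 windows in all, and 6 of these 11 held the motif. The most copies were found for Ppp3cb, which was lower in csMed1-/- heart. Its window is shown in the same way, on the minus strand at chr14:20546524-20546823, as a counterpart to Rcan1.
Ppp3cb start: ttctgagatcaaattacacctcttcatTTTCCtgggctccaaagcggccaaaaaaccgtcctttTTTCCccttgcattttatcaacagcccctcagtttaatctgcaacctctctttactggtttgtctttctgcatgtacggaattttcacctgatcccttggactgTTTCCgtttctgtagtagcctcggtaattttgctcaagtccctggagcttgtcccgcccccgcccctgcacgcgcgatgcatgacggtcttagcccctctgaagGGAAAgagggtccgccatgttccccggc
This window held 4 copies, a number reached by 2.65% of all windows. Nfatc4, whose expression lay close to control, held 3 copies, Camk2d held 1, the windows of Nfatc3 held 1 and 0, and that of Ppp3r1 held 0. Among the 3 windows of Rcan2, the most upstream held 2 copies and the others 0. A match of 5 letters is a description of the sequence and not evidence of binding.

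Among the enzyme subunits, the catalytic gene Ppp3cb was lower and the others were close to control. Ppp3cb (chromosome 14, 20499364 to 20546573, minus strand) encodes calcineurin Aβ, the catalytic isoform tied most closely to the hypertrophic response in mouse heart. It had 5.52 FPKM in Med1fl/fl and 2.47 FPKM in csMed1-/- heart, 2.24-fold lower (log2 ratio -1.16). Ppp3ca (chromosome 3, 136670124 to 136937727, plus strand), the gene of calcineurin Aα, had 2.85 and 2.91 FPKM, a ratio of 1.02. Ppp3r1 (chromosome 11, 17159263 to 17200375, plus strand), which encodes the regulatory B subunit of the heart, had 3.97 and 4.25 FPKM, a ratio of 1.07. With a pseudocount of 1 FPKM added to both libraries, the log2 ratio of Ppp3cb was -0.91, inside 2-fold.

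By FPKM, Ppp3cb and Ppp3ca thus changed order, at csMed1-/- values of 2.47 and 2.91 FPKM that were low and close to each other. Ppp3cb stood at 1.94 times Ppp3ca in control and at 0.847 times Ppp3ca in csMed1-/- heart. Ppp3cc, the third catalytic gene, had 9.03 and 8.07 FPKM and was the highest of the 3 in both libraries, although its longest annotated transcript, of 1970 bases, is shorter than that of Ppp3ca, of 4758 bases, and FPKM depends on the transcript length assumed. The catalytic total went from 17.4 to 13.5 FPKM, a ratio of 0.773. Set against that total, the summed RCAN genes stood at 5.49 times the catalytic genes in control and at 13.9 times in csMed1-/- heart. Ppp3r2, the B subunit gene best known from testis, was listed at 0 in both libraries.

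**Figure D2:**
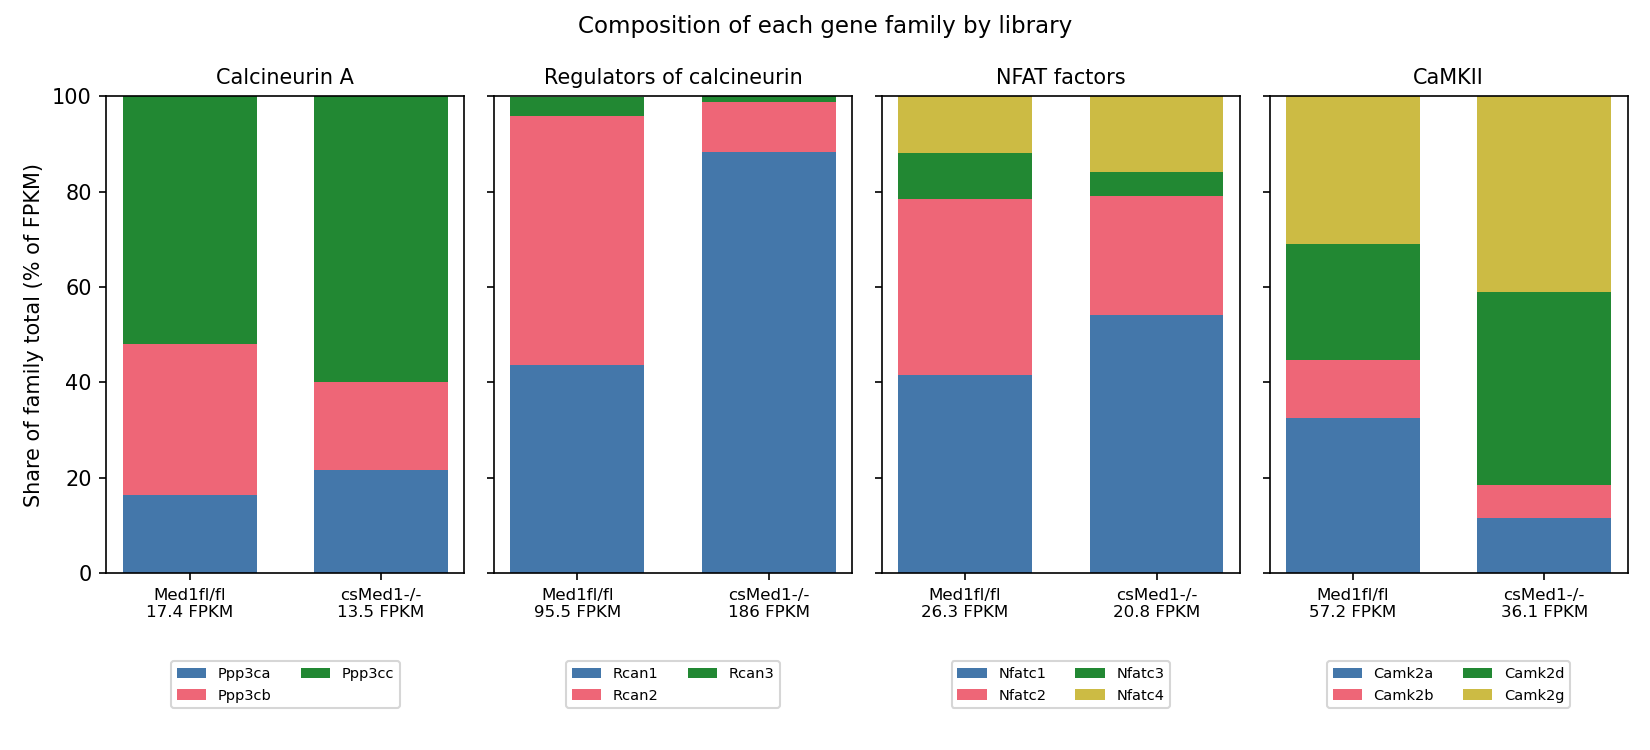
Share of each gene in the summed FPKM of its family (%, stacked bars) in the pooled Med1fl/fl and csMed1-/- libraries, with the family total in FPKM below each bar. Rcan1 goes from 43.6% to 88.3% of the RCAN genes. Of the CaMKII genes, Camk2d goes from 24.4% to 40.6% and Camk2g from 30.9% to 41.1%, while Camk2a shrinks from 32.5% to 11.6%.

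Of the NFAT genes, Nfatc3 was lower and Nfatc1 and Nfatc4 were close to control. Nfatc3 (chromosome 8, 106058840 to 106130537, plus strand) encodes a factor that carries calcineurin signals in mouse cardiomyocytes. It had 2.52 FPKM in Med1fl/fl and 1.05 FPKM in csMed1-/- heart, 0.417 times control (log2 ratio -1.26). Its csMed1-/- value was the lowest of the 20 values of the group, and a pseudocount of 1 FPKM brought its log2 ratio to -0.78, inside 2-fold.

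Nfatc1, known for its role in the endocardium and heart valves, had 10.9 and 11.3 FPKM, a ratio of 1.03. Nfatc4 (chromosome 14, 55823144 to 55833943, plus strand), the factor first linked to GATA4 in cardiac hypertrophy, had 3.14 and 3.30 FPKM, a ratio of 1.05. Nfatc2, no member of the 10 genes, had 9.70 and 5.20 FPKM, a ratio of 0.537 just inside 2-fold. The 4 calcium-regulated NFAT genes summed to 26.3 FPKM in the control pool and 20.8 in the csMed1-/- pool. Nfatc1 supplied 41.5% of this total in control and 54.1% in csMed1-/- heart, and Nfatc3 supplied 9.60% and 5.05%.

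The CaMKII genes of the group stood near their control values while their relatives did not. Camk2d (chromosome 3, 126596302 to 126846326, plus strand), the gene of the main cardiac isoform CaMKIIδ, had 14.0 FPKM in Med1fl/fl and 14.7 FPKM in csMed1-/- heart, 1.05 times control. Camk2g (chromosome 14, 20734875 to 20794088, minus strand), the gene of CaMKIIγ, the other isoform of heart muscle, had 17.7 and 14.8 FPKM, a ratio of 0.838. Camk2g lies 188.3 kb from Ppp3cb on the same chromosome, and of this pair only Ppp3cb was past 2-fold.

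The relatives best known from brain were lower. Camk2a had 18.6 FPKM in the control pool and 4.20 in the csMed1-/- pool, 4.42-fold lower, and Camk2b had 6.95 and 2.44 FPKM, 2.85-fold lower. The Camk2a gene also encodes αKAP, a kinase-anchoring protein of muscle that lacks the catalytic domain, and a value per gene does not separate it from the kinase. Camk2d and Camk2g together had 31.7 FPKM in the control pool and 29.5 in the csMed1-/- pool, against 25.5 and 6.64 FPKM for Camk2a and Camk2b. The share of Camk2d in the family went from 24.4% to 40.6% and that of Camk2g from 30.9% to 41.1%, in a family total that went from 57.2 to 36.1 FPKM.

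Beyond the 10 genes, 25 further genes of the calcineurin and NFAT route were examined, of which 18 were kept. Of these, 3 were more than 2-fold higher, 2 were lower and 13 lay within 2-fold, with a median log2 ratio of 0.25. The share past 2-fold was 27.8%, near the 31.5% of all genes kept. Myoz2, the gene of calsarcin-1, which tethers calcineurin to the Z-disc and restrains it, had 1362 FPKM in the control pool and 368.2 in the csMed1-/- pool, 3.70-fold lower. Akap6, whose product mAKAP anchors calcineurin at the nuclear envelope, had 3.67 and 1.49 FPKM, and a pseudocount of 1 FPKM brought it inside 2-fold (log2 ratio -0.91). Cib1, which anchors calcineurin at the sarcolemma, was 3.37-fold higher, at 31.1 and 104.7 FPKM. Lmcd1, a LIM-domain protein gene linked to calcineurin-driven growth, was 3.80-fold higher, at 52.0 and 197.5 FPKM. Myoz1, the skeletal muscle relative of Myoz2, had 0.299 and 2.15 FPKM and was kept through its csMed1-/- value alone. Requiring 1 FPKM in both libraries left Myoz1 out, and 4 genes of this list were then past 2-fold.

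Of 24 further genes of the CaM kinase, class II HDAC and MEF2 route, 23 were analysed and 17 were kept, 3 of them more than 2-fold higher and 3 lower, with a median log2 ratio of -0.22. The share past 2-fold was 35.3%, near the 31.5% of all genes kept. Camk2n2, which encodes an inhibitor protein of CaMKII, was 7.34-fold higher, at 1.80 FPKM in the control pool and 13.2 in the csMed1-/- pool. Its sister gene Camk2n1 had 3.01 and 2.59 FPKM, and the 2 inhibitor genes together went from 4.81 to 15.8 FPKM. The lower genes were Camk2a, Camk2b and Prkd1, which encodes protein kinase D1, another kinase of class II HDACs, at 1.46 and 0.727 FPKM. Camk1g had 0.874 and 1.88 FPKM and Camkk1, an upstream CaM kinase kinase, had 0.871 and 1.86 FPKM. Camk1g and Camkk1 were kept through their csMed1-/- value alone, and Prkd1 through its control value alone. The 35.3% share includes these genes, and without them 3 genes of the list were past 2-fold. A share under that stricter rule was not computed, for the list or for all genes. Hdac5, which encodes a target of protein kinase D and had the highest mean of both libraries in this list, had 59.3 and 102.5 FPKM, a ratio of 1.73.

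**Figure D3:**
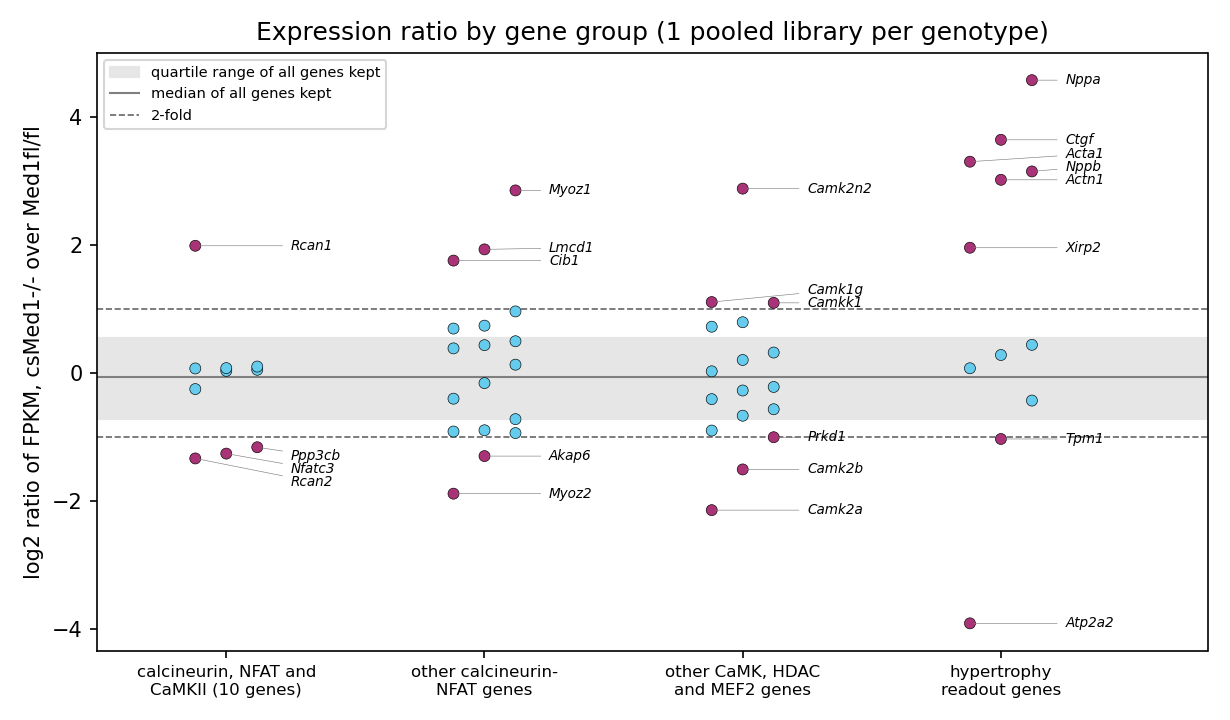
Log2 ratio of FPKM (csMed1-/- over Med1fl/fl) of each gene kept, by gene group, with dashed lines at 2-fold, a grey line at the median of all genes kept (-0.07) and a grey band between their quartiles (-0.72 to 0.55). Purple points are past 2-fold and named, blue points are not. The 6 genes of the 10 that were within 2-fold sit in the band, and the hypertrophy readout genes reach farthest, from Atp2a2 at -3.91 to Nppa at 4.57.

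Genes commonly read as signs of hypertrophy or heart failure included larger ratios than any of the 10 signalling genes. Of 14 listed genes 12 were analysed and kept, and 6 of them were more than 2-fold higher and 2 lower in csMed1-/- heart, with a median log2 ratio of 1.19. This is 66.7% of the 12, against 31.5% of all genes kept. Nppa, the gene of atrial natriuretic peptide, had 468.5 FPKM in the control pool and 11114 in the csMed1-/- pool, 23.7-fold higher. Nppb was 8.83-fold higher, the skeletal actin gene Acta1 9.82-fold, Ctgf 12.4-fold, Actn1 8.07-fold and Xirp2 3.87-fold. Atp2a2, which encodes the calcium pump SERCA2 of the sarcoplasmic reticulum, had 3585 and 238.2 FPKM, and Tpm1, with the highest mean of both libraries in the list, had 10408 and 5085 FPKM. With ratios centred on their median, Tpm1 lay inside 2-fold (log2 ratio -0.96) and 7 genes were past it. The study names Nppa, Nppb, Acta1, Ctgf, Actn1 and Atp2a2 for their change in these hearts. Neither their direction here nor the 66.7% share of this list is therefore independent evidence. Gata4, the NFAT partner, had 87.2 and 91.6 FPKM, a ratio of 1.05.

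Markers of cell types moved between the libraries too. Summed over 8 fibroblast markers, expression was 503.2 FPKM in the control pool and 1193 in the csMed1-/- pool, with 4 of 8 more than 2-fold higher and 1 lower. Without Col1a1, at 129.5 and 501.7 FPKM, the other 7 fibroblast markers summed to 373.8 and 691.6 FPKM. Over 8 endothelial markers expression was 689.6 and 546.1 FPKM, with 3 of 8 lower, and over 8 smooth muscle and pericyte markers 700.0 and 1137 FPKM, with 3 higher and 1 lower. The rise of that last sum came from Cnn1, at 4.32 and 622.4 FPKM, and the other 7 markers summed to 695.7 and 514.7 FPKM. Over 8 macrophage markers it was 413.0 and 486.4 FPKM, with 1 of 8 higher. The 7 lymphocyte markers summed to 2.39 and 1.90 FPKM, with Ms4a1 at 0 in csMed1-/- heart. Alas2 and Slc4a1, the 2 erythroid markers of 6 that were analysed, summed to 36.5 and 85.2 FPKM. The part of these shifts in the values of Rcan1, Rcan2, Ppp3cb and Nfatc3 was not tested.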

How the data were processed

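Heart RNA of 5 Med1fl/fl and 5 csMed1-/- mice was pooled by genotype and read as 1 library each (poly(A)-selected, directional, single-end reads of 50 nt). The authors aligned reads to mm10 with TopHat v2.0.8b and obtained the deposited FPKM values with Cufflinks and cuffdiff v2.1.1, so alignment, length correction and library scaling precede the files. The scaling option is not given in the sources used here, and STAR 2.4.0h, Bowtie2 and DESeq2, also in the submitters' processing notes, have no stated role.

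The deposited FPKM was used unchanged. Rows that share a symbol were summed, and Chp1 was matched through an older symbol. Genes listed at 0 in a library, or under 1 FPKM in both, were left out. Ratios past 2-fold were counted. With 1 library per genotype no test was made. Family totals and shares were sums of FPKM within a library. The genes named were the 10 members, their families, Med1, and from each pathway list the genes past 2-fold and the gene with the highest mean FPKM. Camk2n1 and Gata4 were added after their values were seen. The members and lists were chosen with earlier results of these data known. Myh6, Myh7, Camta2 and the hemoglobin genes of the lists were not analysed here, and 1 further list is not reported here. Positions came from GENCODE M21 (GRCm38, the same assembly as mm10), and promoter windows from RefSeq (GRCm38.p6). The computation was tested on simulated data. Python 3.11.15, numpy 2.4.6, pandas 2.3.3 and matplotlib 3.10.9 were used.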

Additional observations from a re-analysis of the deposited data

How the results depend on the processing

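With 1 library per genotype, no replicate could be left out and the spread between pools is unknown. No paired analysis was possible because each group holds 1 library. Alternative scalings moved every ratio together, by 0.07 (median), -0.04 (75th percentile) and -0.02 (without the 100 highest genes) on the log2 scale, and none moved a gene of the 10 across 2-fold. Under the 75th percentile scaling the log2 ratio of Ppp3ca changed sign, from 0.03 to -0.01. A pseudocount of 1 FPKM left 2 of the 10 genes past 2-fold (Rcan1 and Rcan2), 1 of them lower, and 3 of the CaM kinase, HDAC and MEF2 list. Counts over all genes fell as well, from 1423 to 1081 higher and from 1886 to 1291 lower. Requiring 1 FPKM in both libraries also left 3 of the CaM kinase, HDAC and MEF2 list. It left 4 of the calcineurin and NFAT list, and of all genes 1037 were higher and 1342 lower. Without a filter on low values, 10 genes of the calcineurin and NFAT list were past 2-fold in place of 5, and of all genes 2504 were higher and 3182 lower. At a threshold of 1.5-fold, 12 genes of the calcineurin and NFAT list and 10 of the CaM kinase list were past it, while the count of the 10 members stayed at 4. The share of all genes past 1.5-fold was not counted, so these counts cannot be set against it. Over all alternatives the log2 ratio of Rcan1 ran from 1.94 to 2.05 and that of Rcan2 from -1.38 to -1.27. Values were counted as moved at 0.1 or more on the log2 scale. Depth is unknown, so no counting error could be set beside any value.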

Other observations

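Genes within 300 kb of Rcan1 and Rcan2 were looked at after the values were seen. Beside Rcan1, 1 of them was expressed highly enough to be kept. This gene, Kcne1, which encodes a potassium channel subunit and lies 32.5 kb from Rcan1, had 16.6 FPKM in Med1fl/fl and 1.16 FPKM in csMed1-/- heart, 14.3-fold lower, against 3.95-fold higher for Rcan1. Clic6 and Kcne2 were at or near 0, Runx1 had 0.0614 and 0.115 FPKM, and the other 4 annotated genes were not analysed here. Beside Rcan2, Cyp39a1, an enzyme of oxysterol metabolism, had 2.35 and 8.72 FPKM, 3.72-fold higher where Rcan2 was lower, and Enpp4, Enpp5, Clic5 and Pla2g7 lay within 2-fold. Each rests on 1 library per genotype.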
